A study of Rattus norvegicus with 8 samples.

Results

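The genes described here are 10 markers of microglia, the resident macrophages of the brain: C1qa, C1qb, C1qc, Trem2, Tyrobp, Aif1, Csf1r, Itgam, Cd68 and Tmem119. They were found by gene name among the non-control probes of the array, which hold 14 probes (23 spots) for these 10 of 26269 names. The hypothalamus of lactating Wistar rats was taken at postpartum day 7 from 4 control dams and 4 dams exposed to TCDD, a dioxin that activates the aryl hydrocarbon receptor. How much TCDD the dams received, how and when, is not stated in the labels. Each dam's RNA was measured on 1 single-colour Agilent array. The 4 control arrays lay on 1 slide and the 4 TCDD arrays on another, so slide and exposure cannot be told apart.

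Microglia survey the tissue, clear debris and prune synapses, and in the hypothalamus they also respond to hormones and nutrients. They depend on the receptor CSF1R for survival. TREM2 on their surface signals through the adaptor TYROBP, and they are the main source of the complement protein C1q in the brain. Because the samples were pieces of tissue, fewer microglia and less RNA per microglial cell cannot be told apart.

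Values are log2 of the spot signal minus the array's 75th percentile, so that a value above 0 is brighter than 75% of the spots. A value compares arrays for 1 probe and not probes with each other. All 10 markers were well above background on all 8 arrays and entered the test. Microglial RNA was also seen through 25 of 30 further microglia genes that passed the filter, and the tissue label through 14 of 14 hypothalamic genes, Oxt, Avp, Pomc and Hcrt among them. The share of probes above background ran from 61.7% to 66.7% over the arrays, and arrays correlated with each other at r from 0.988 to 0.996 across genes.

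The probes of 2 C1q chains are shown because C1q carries the main pattern of covariation described further on. C1q is built from the products of 3 neighbouring genes, and the probes of C1qb, C1qc and C1qa lie within 15.1 kb on chromosome 5 (rn4), at 155647530 to 155647589, 155656638 to 155656697 and 155662578 to 155662637. Probes are printed 5′ to 3′.
C1qa probe: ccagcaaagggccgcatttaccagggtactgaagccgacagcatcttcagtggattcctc
C1qc probe: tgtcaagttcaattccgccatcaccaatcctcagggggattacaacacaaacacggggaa

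The pair of Itgam probes is shown because both probes measure 1 gene and overlap in sequence. Capitals mark the 34 bases that the 2 probes share. The first spans 534 bases of chromosome 1 (rn4, 187385032 to 187385565), and the second lies at 187385524 to 187385583.
Itgam probe for the RefSeq transcript: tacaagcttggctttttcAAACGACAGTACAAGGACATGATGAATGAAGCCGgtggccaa
Itgam probe for the Ensembl transcript: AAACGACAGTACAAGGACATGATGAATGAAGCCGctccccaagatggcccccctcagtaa

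The other probes used lie, in rn4, on chromosome 9 at 8059065 to 8059124 (Trem2), chromosome 1 at 85369110 to 85369169 (Tyrobp), chromosome 20 at 3716146 to 3716205 (Aif1), chromosome 18 at 57105231 to 57105932 (Csf1r), chromosome 10 at 56481726 to 56481785 (Cd68) and chromosome 12 at 43869614 to 43869673 (Tmem119). No annotation of that build was used, so exons are not named.

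None of the 10 microglia markers passed the test between TCDD and control dams, and the groups overlapped for each of the 10. Of the 16574 genes tested, 4 passed limma at an adjusted p under 0.05, or 0.0241%, and 10.8% stood at an unadjusted p under 0.05. Among the markers 0 stood at that level in either direction, where the shares of all genes were 7.95% for higher and 2.82% for lower levels under TCDD. With single arrays left out, between 0 and 8 of all genes passed and 0 markers did, while 0 to 2 markers stood at an unadjusted p under 0.05. These were Itgam without control replicate 2, Trem2 without control replicate 3, C1qb and Cd68 without TCDD replicate 2, and Tmem119 without TCDD replicate 4. In the same order of runs, 1394, 1718, 1797 and 1574 of all genes stood at that level in limma. The groups did not overlap in 7.05% of all genes. The marker differences ranged from -0.27 for Trem2 to 0.30 for Tmem119 on the log2 scale, with 8 markers lower and 2 higher in TCDD dams, where 48.5% of all genes were lower. The median was -0.079 over the markers and 0.0042 over all genes. The median size of the difference, whatever its sign, was 0.10 over the markers and 0.074 over all genes.

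**Figure D1:**
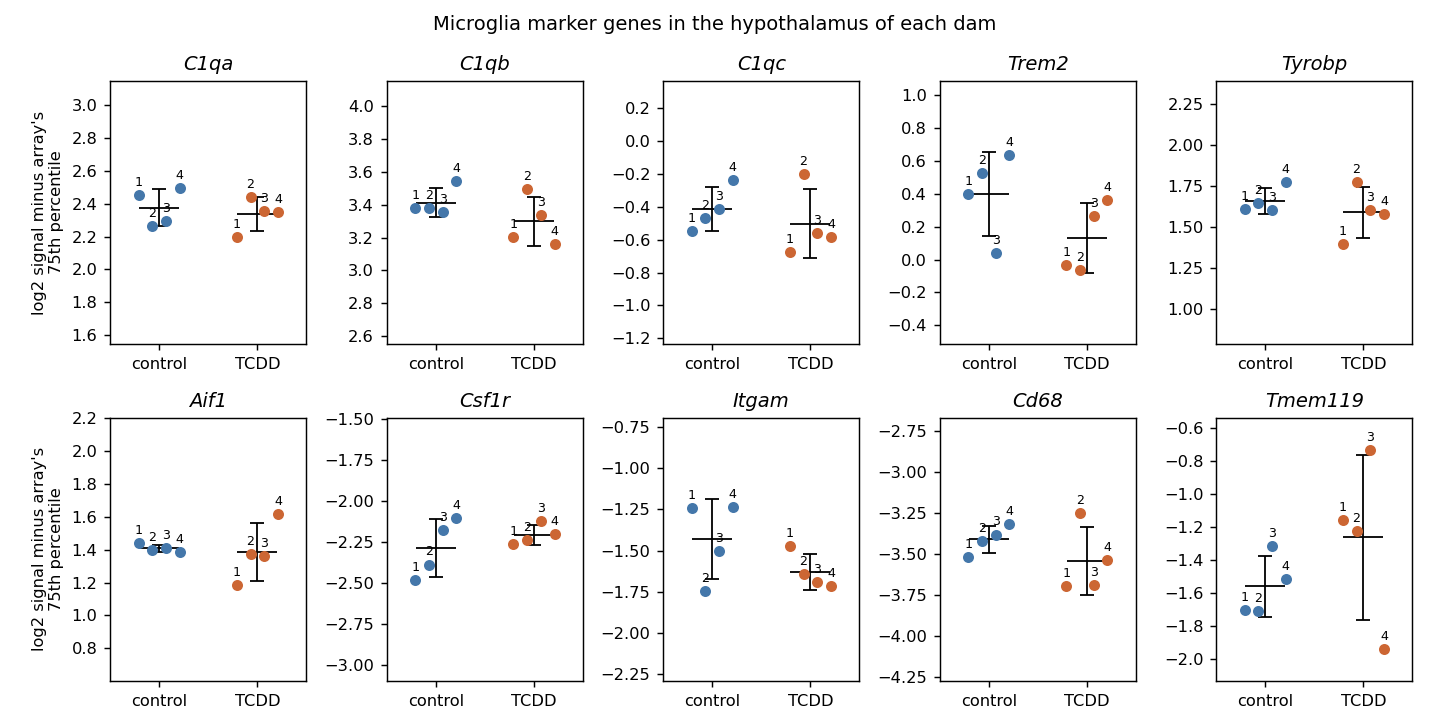
Log2 signal minus the array's 75th percentile for the 10 microglia markers in each dam, with 4 control (blue) and 4 TCDD dams (orange) numbered by replicate; the bar is the mean and the whisker the SD (n = 4). Each axis spans the same width on the log2 scale, the groups overlap for every marker shown, and Tmem119 spreads most among TCDD dams.

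The C1q genes encode the 3 chains of the molecule that starts the classical complement cascade and tags synapses for removal. C1qa stood at 2.45, 2.26, 2.29 and 2.49 in control replicates 1 to 4 and at 2.20, 2.44, 2.35 and 2.35 in the TCDD replicates. C1qb stood at 3.38, 3.38, 3.35 and 3.54 in the controls and at 3.20, 3.49, 3.34 and 3.16 in TCDD dams. C1qc stood at -0.55, -0.47, -0.41 and -0.23 in the controls and at -0.67, -0.20, -0.56 and -0.58 in TCDD dams. For all 3 chains the highest control was replicate 4 and the highest TCDD dam was replicate 2. For C1qc the TCDD dams lay outside the control range, replicate 2 above it and the other 3 below.

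The log2 fold change, TCDD minus control, was -0.039 for C1qa (95% interval -0.21 to 0.14, limma adjusted p = 0.915). It was -0.11 for C1qb (-0.31 to 0.080, adjusted p = 0.716) and -0.089 for C1qc (-0.35 to 0.17, adjusted p = 0.852). As ratios of TCDD to control, the last 2 intervals run from 0.808 to 1.06 for C1qb and 0.785 to 1.13 for C1qc. The interval of C1qa was the narrowest among the 10 markers.

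Trem2 encodes a lipid-sensing receptor that drives phagocytosis, and Tyrobp the adaptor through which it signals. Trem2 stood at 0.40, 0.52, 0.040 and 0.63 in the control replicates and at -0.031, -0.062, 0.26 and 0.36 in the TCDD replicates. Control replicate 3 lay among the TCDD values and the other 3 controls above them. Tyrobp stood at 1.61, 1.64, 1.60 and 1.77 in the controls and at 1.40, 1.78, 1.60 and 1.58 in TCDD dams. TCDD replicate 1 held the lowest Tyrobp value and TCDD replicate 2 the highest.

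The difference of Trem2 was -0.27 (SE 0.15, 95% interval -0.61 to 0.074, limma adjusted p = 0.597), the lowest value among the markers and not past the threshold. That of Tyrobp was -0.069 (SE 0.084, interval -0.26 to 0.13, adjusted p = 0.846). Leaving out single arrays moved Trem2 between -0.39 and -0.19.

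Csf1r encodes the receptor tyrosine kinase for CSF1 and IL-34. Its values were -2.48, -2.39, -2.17 and -2.11 in the control replicates and -2.26, -2.23, -2.12 and -2.20 in the TCDD replicates. The TCDD dams lay close together within the wider range of the controls, with SDs of 0.060 and 0.18. The difference was 0.083 (SE 0.089, 95% interval -0.12 to 0.29, limma adjusted p = 0.818). A second Csf1r probe was well above background on 3 arrays of each group, the replicate 1 arrays being the exceptions, and was not tested.

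Aif1 encodes IBA1, the calcium-binding protein used to stain microglia. On the brighter of its 2 probes, control dams held nearly the same level of it, at 1.44, 1.40, 1.41 and 1.38, with an SD of 0.023. TCDD dams stood at 1.19, 1.38, 1.36 and 1.62, replicates 1, 2 and 3 below and replicate 4 above all controls, with an SD of 0.18. Whether the spread itself differed was not tested. The difference of the means was -0.023 (SE 0.086, 95% interval -0.22 to 0.17, limma adjusted p = 0.964), and a second Aif1 probe gave -0.0012. On that second probe controls stood at 1.20, 1.36, 1.34 and 1.22 (SD 0.079). TCDD dams stood there at 1.11, 1.21, 1.28 and 1.52 (SD 0.17), replicates 2 and 3 within the control range.

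Itgam encodes the alpha chain of complement receptor 3, also called CD11b. It stood at -1.24, -1.75, -1.50 and -1.24 in the controls and at -1.47, -1.64, -1.69 and -1.71 in TCDD dams. Control replicates 1 and 4 were above every TCDD dam, and control replicate 2 was below them. The difference was -0.20 (SE 0.12, 95% interval -0.48 to 0.079, limma adjusted p = 0.640). The other probe, whose sequence is printed first above, gave -0.32 (SE 0.19, adjusted p = 0.63 over all probes).

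Cd68 encodes a lysosomal membrane protein of phagocytes. It stood at -3.52, -3.42, -3.38 and -3.32 in the controls and at -3.69, -3.25, -3.69 and -3.54 in TCDD dams. TCDD replicate 2 lay above the controls and the other 3 TCDD dams below them. The difference was -0.13 (SE 0.10, 95% interval -0.37 to 0.11, limma adjusted p = 0.734).

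Tmem119 encodes a membrane protein that in the brain marks resident microglia rather than macrophages that enter from blood. It stood at -1.70, -1.71, -1.31 and -1.52 in the controls and at -1.16, -1.23, -0.73 and -1.94 in TCDD dams. TCDD replicate 4 was the lowest of the 8 dams and the other 3 TCDD dams the highest. The difference was 0.30 (SE 0.23, 95% interval -0.23 to 0.83, limma adjusted p = 0.732). It was 0.12 without TCDD replicate 3 and 0.52 without TCDD replicate 4 (unadjusted p = 0.00945, adjusted p = 0.318 in limma). The range over TCDD dams was 2.31-fold, against 1.32-fold over controls. Its within-group SD, at 0.38, was larger than that of 93.3% of the genes tested, where the median over the 10 markers was 0.15 and over all genes 0.12.

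Tmem119 could be read more closely, since its brighter probe is repeated on 10 spots of each array. The SD over those spots ran from 0.031 to 0.086, with a median of 0.056. The range of the 8 dams was 1.21 on the same log2 scale. The other Tmem119 probe, on 1 spot at 43868969 to 43869028, followed the same dams (Pearson r = 0.971, Spearman rho = 0.905 over 8 arrays, exact permutation p = 0.000496 and 0.00456, adjusted over the 4 genes with 2 probes 0.000992 and 0.00913). Without the 2 arrays farthest from the median r was 0.966, and with group means removed 0.967. It gave a difference of 0.30 (SE 0.20). The 2 Itgam probes also went together across the 8 arrays (r = 0.982, rho = 0.929, exact permutation p = 0.000471 and 0.00223, adjusted 0.000992 and 0.00893). Their r was 0.932 without 2 arrays and 0.975 with group means removed, though they share part of their sequence.

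The 2 Aif1 probes gave r = 0.858 and rho = 0.548 (exact permutation p = 0.0180 and 0.171, adjusted 0.0240 and 0.171), with 0.862 once group means were removed. Without TCDD replicates 1 and 4, the arrays farthest from the median, r was -0.061, so the relation rests on those 2 dams. The 2 Csf1r probes gave r = 0.737 and rho = 0.690 (exact permutation p = 0.0398 and 0.0694, adjusted 0.0398 and 0.0925), 0.562 without 2 arrays and 0.769 with group means removed.

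**Figure D2:**
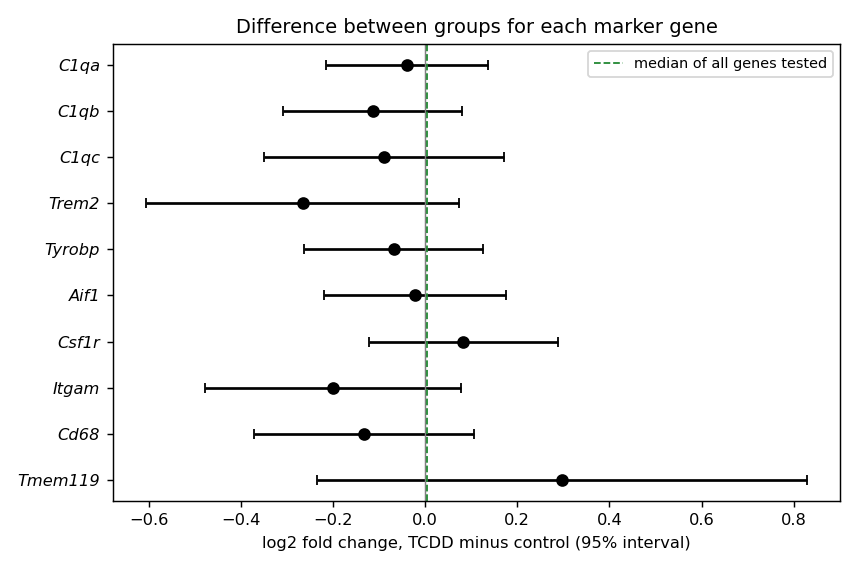
Log2 fold change, TCDD minus control, for each microglia marker with its 95% interval from limma (n = 4 dams per group). Every interval spans 0, the widest being that of Tmem119 from -0.23 to 0.83, and the dashed line is the median of all 16574 genes at 0.0042.

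Across the 8 dams, the higher correlations lay among 5 of the markers, the 3 C1q chains, Tyrobp and Cd68, a set named after the values were seen. Of their 10 pairs, 2 passed the adjusted threshold by Pearson's r and 3 by Spearman's rho. The median Pearson r over the 45 pairs of markers was 0.18, against 0.016 over all pairs of tested genes. Of the 45 pairs, 10 reached r = 0.5 or more, a share of 22.2% against 13.8% of all pairs of genes. These 10 were the pairs among those 5 markers, and 33 of the 45 were above 0. With group means removed, the median was 0.22 against 0.022, and the share at r = 0.5 or more was 22.2% against 16.1%.

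Cd68 and C1qc followed each other most closely, with r = 0.925 and rho = 0.976 (exact permutation p = 0.00139 and 0.000397, adjusted over 45 pairs 0.0313 and 0.0179). With group means removed r was 0.928, and it was 0.949 within controls and 0.943 within TCDD dams, 4 dams each. Without control replicate 4 and TCDD replicate 2, the dams with the highest C1qc, r was 0.880. Tyrobp and C1qc gave r = 0.916 and rho = 0.929 (exact permutation p = 0.00122 and 0.00223, adjusted 0.0313 and 0.0335), with 0.908 after removal of group means and 0.773 without the same 2 dams. These 2 pairs passed the adjusted threshold by Pearson's r.

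By Spearman's rho 3 pairs passed, the third being C1qb with Tyrobp (rho = 0.929, adjusted p = 0.0335; r = 0.859, adjusted p = 0.0946, exact permutation p = 0.00223 and 0.0105). Its r was 0.992 without TCDD replicate 4 and control replicate 4, the dams farthest from the median of C1qb, and 0.851 with group means removed. C1qb with its neighbour C1qc gave r = 0.878 (exact permutation p = 0.00846, adjusted 0.0946) and rho = 0.857 (p = 0.0107, adjusted 0.0804), with 0.896 without those same dams and 0.880 after removal of group means. C1qa was less close to the other chains, at r = 0.687 with C1qb and 0.645 with C1qc (exact permutation p = 0.0582 and 0.0885, adjusted 0.327 and 0.398). Without TCDD replicate 1 and control replicate 4 these were 0.331 and 0.242, so both rest on those 2 dams. The same holds for C1qa with Tyrobp (r = 0.795, rho = 0.595, exact permutation p = 0.0177 and 0.132, adjusted 0.133 and 0.595; 0.418 without them) and with Cd68 (r = 0.536, rho = 0.500, exact permutation p = 0.173 and 0.216, adjusted 0.700 and 0.748; 0.107 without them).

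**Figure D3:**
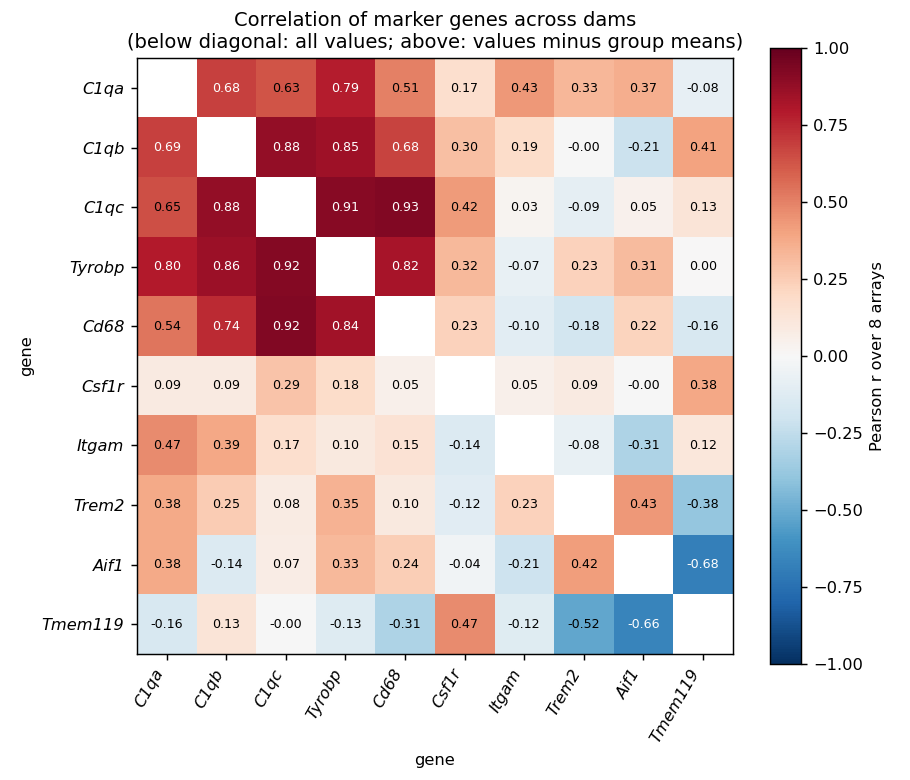
Pearson r over 8 arrays for each pair of the 10 markers, from all values below the diagonal and from values minus their group means above it; red is positive and blue negative. The 3 C1q chains, Tyrobp and Cd68 form a block with r from 0.54 to 0.92 below the diagonal, and the lowest value is -0.68 for Aif1 with Tmem119 after removal of group means.

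The other 5 markers stood outside that block. For Tmem119, 7 of its 9 pairs with other markers were below 0 in pooled values and 4 of 9 with group means removed, the lowest being that with Aif1 (r = -0.662, rho = -0.857, exact permutation p = 0.0730 and 0.0107, adjusted 0.365 and 0.0804; -0.758 without TCDD replicates 1 and 4, -0.684 with group means removed). Trem2 and its adaptor Tyrobp did not go together beyond the spread, at r = 0.350 and rho = 0.238 (exact permutation p = 0.415 and 0.582, adjusted 0.921 and 0.977; 0.711 without TCDD replicates 1 and 2, 0.229 with group means removed). Without Tmem119 the median of the remaining 36 pairs was 0.27. The median of the 45 pairs was 0.065 without control replicate 4, 0.090 with median scaling and 0.34 without TCDD replicate 2. With group means removed these values were 0.076, 0.033 and 0.39.

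**Figure D4:**
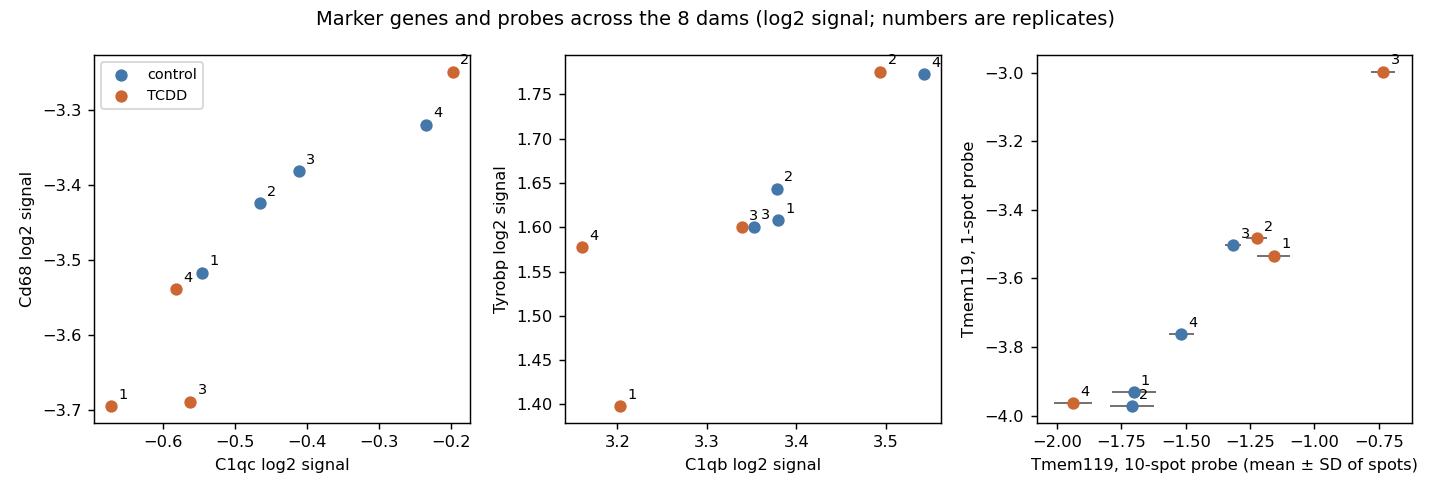
Log2 signals of the 8 dams (control blue, TCDD orange, numbered by replicate) for Cd68 against C1qc, Tyrobp against C1qb, and the 2 Tmem119 probes against each other; horizontal lines in the last panel are the SD over 10 spots. Control replicate 4 and TCDD replicate 2 lie at the upper right for the first 2 pairs, and the Tmem119 probes place the dams along 1 line with r = 0.971.

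Control replicate 4 and TCDD replicate 2, where the C1q genes, Tyrobp and Cd68 were highest within their groups, also held high levels of genes of some other cells. Of 14 listed genes of border macrophages and monocytes 6 were measured, and their mean level was -2.88 and -2.50 on those arrays against -3.74 to -3.03 on the other 6. Mrc1, F13a1, Ms4a7, Ccr2 and Ly6c of that list did not pass the filter. The mean of 5 of 7 red blood cell genes was 3.56 and 3.84 there, 3.51 on TCDD replicate 4 and 1.89 to 3.23 on the others. The mean of 9 of 10 astrocyte genes was 3.05 and 3.04 against 2.78 to 2.94, and that of 14 of 14 hypothalamic genes 2.51 and 2.50 against 2.24 to 2.40. The mean of 10 of 10 neuronal genes was lowest on the same arrays, at 1.22 and 1.29 against 1.35 to 1.41. Endothelial genes stood at -1.74 and -1.44 against -1.72 to -1.58, and oligodendrocyte genes at 2.15 and 2.31 against 2.20 to 2.35. The other microglia genes stood at -1.80 and -1.78 against -1.89 to -1.64. Microglia activation genes stood at -2.34 and -2.36 against -3.04 to -2.63. The part of the other cell types in the covariation was not tested. Of 22 genes of T cells, B cells and neutrophils 6 were measured, at a mean of -4.47 and -4.21 on those arrays against -4.91 to -4.51. Cd3e, Ms4a1 and Mpo were among those that did not pass the filter. Complement genes beyond C1q stood at -1.29 and -1.09 against -1.76 to -1.43, and endosome and lysosome genes at 1.30 and 1.31 against 1.15 to 1.20. Beta 2 integrin partners and ligands stood at -2.42 and -2.19 against -2.62 to -2.52. Genes of TREM2, TYROBP and CSF1R signalling stood at -1.96 and -2.03 against -2.21 to -1.97.

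Promoter sequence is shown for 3 genes of the covarying block. PU.1, encoded by Spi1, is the main transcription factor of microglia and binds purine-rich sites with the core GAGGAA. Promoters are RefSeq's on GRCr8, 250 bases before to 50 after the gene's start, for 6 of the 10 markers (C1qa, C1qb, Trem2, Csf1r, Itgam and Cd68; C1qc, Tyrobp, Aif1 and Tmem119 had no entry). Capitals mark GAGGAA, or TTCCTC where it lies on the opposite strand.
C1qb, chr5:154407778-154408077, minus strand: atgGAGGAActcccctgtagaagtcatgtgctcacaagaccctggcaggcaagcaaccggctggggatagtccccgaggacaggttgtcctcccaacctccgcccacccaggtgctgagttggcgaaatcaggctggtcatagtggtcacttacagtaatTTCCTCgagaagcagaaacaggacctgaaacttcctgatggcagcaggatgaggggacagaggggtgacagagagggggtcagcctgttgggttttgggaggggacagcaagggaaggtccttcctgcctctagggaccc
Cd68, chr10:54882392-54882691, minus strand: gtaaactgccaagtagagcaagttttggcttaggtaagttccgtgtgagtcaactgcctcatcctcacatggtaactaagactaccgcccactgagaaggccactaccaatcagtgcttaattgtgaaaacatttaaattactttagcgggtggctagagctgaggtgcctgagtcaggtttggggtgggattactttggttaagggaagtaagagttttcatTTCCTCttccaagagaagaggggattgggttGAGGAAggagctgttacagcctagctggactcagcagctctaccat
C1qa, chr5:154419884-154420183, minus strand: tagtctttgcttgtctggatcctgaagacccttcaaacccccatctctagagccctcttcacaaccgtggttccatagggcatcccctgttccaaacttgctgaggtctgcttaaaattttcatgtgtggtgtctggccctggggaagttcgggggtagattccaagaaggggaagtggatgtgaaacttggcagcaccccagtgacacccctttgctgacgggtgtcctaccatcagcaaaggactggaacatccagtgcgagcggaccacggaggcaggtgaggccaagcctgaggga

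The 6 letters, on either strand, are in 5 of the 6 marker promoters and in 27.6% of 33469 rat promoters of the same length. C1qb has them 247 and 90 bases before the start, Cd68 27 bases before and 4 after it, and C1qa has none in this window. Such matches describe letters and not bound sites.

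The pathway genes around the markers did not pass the test either. The genes named from here on are the member of each list with the smallest p in each direction, or were picked for their role with values known. Of 22 listed genes of TREM2, TYROBP and CSF1R signalling 15 were measured, 5 higher and 10 lower, with a median difference of -0.016 and 0 at an unadjusted p under 0.05. The CSF1R ligands Csf1 and Il34 stood at -0.00067 (SE 0.087) and 0.0066 (SE 0.057). Spi1 stood at -0.22 (SE 0.12, limma adjusted p = 0.616). The phosphatase Inpp5d, which restrains TREM2 signalling, stood at -0.13 (SE 0.069, adjusted p = 0.582), and the ubiquitin ligase Cbl had the smallest p among the lower genes, at -0.17 (SE 0.093, adjusted p = 0.576). Runx1, a blood cell and microglia transcription factor, stood at 0.12 (SE 0.090, adjusted p = 0.713).

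Complement genes beyond C1q did not pass the test. C3, the central component that C1q activation leads to, had log2 signals of -1.46, -1.95, -1.49 and -1.21 in the controls and -2.33, -2.09, -2.49 and -1.79 in TCDD dams. TCDD replicate 4 lay above control replicate 2, and the groups were otherwise apart. The difference was -0.65 (SE 0.19, unadjusted p = 0.00862, limma adjusted p = 0.252) and did not pass. The C1q-associated proteases C1r and C1s stood at -0.023 (SE 0.25) and -0.074 (SE 0.26). Of 24 listed complement genes 18 were measured, 3 higher and 15 lower, 1 of them at an unadjusted p under 0.05, with a median of -0.071. Cd46 had the smallest p among the higher ones, at 0.17 (adjusted p = 0.870).

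Beta 2 integrin partners and ligands, with the Itgam partner Itgb2, showed 3 higher and 3 lower of 6 measured (of 10 listed). The integrin genes Itgal, Itgax and Itgad of that list did not pass the filter. Itgb2 stood at 0.11 (SE 0.10), the integrin activator Fermt3 at 0.25 (SE 0.19, limma adjusted p = 0.723) and talin, Tln1, at -0.080 (SE 0.12, adjusted p = 0.883). Endosome and lysosome genes, to which Cd68 belongs, showed 7 higher and 9 lower of 16 measured (of 19), with a median of -0.0033. Cathepsin D, Ctsd, stood at 0.13 (SE 0.13) and cathepsin H, Ctsh, at -0.12 (SE 0.11).

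Other microglia genes gave 16 higher and 9 lower of 25 measured, with a median of 0.028. At an unadjusted p under 0.05 stood 1, the Fc receptor-like gene Fcrls. It stood at -3.60, -4.49, -5.52 and -5.36 in the controls and at -3.75, -4.26, -3.02 and -3.47 in TCDD dams, the groups overlapping through control replicate 1. Its difference was 1.11 (SE 0.44, limma adjusted p = 0.408). The signal of Fcrls was dim, with means of -4.7 in controls and -3.6 in TCDD dams. Whether it was well above background in both groups was not examined, since the filter asked for a single group. The purinergic receptor P2ry12 stood at 0.071 (SE 0.20), the fractalkine receptor Cx3cr1 at -0.019 (SE 0.091) and the microglial transcription factor Sall1 at -0.12 (SE 0.058, adjusted p = 0.522).

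Genes that microglia turn on in disease or inflammation gave 6 higher and 14 lower of 20 measured (of 32), with a median of -0.12. The chemokine Ccl3 had the smallest p, at -0.98 (SE 0.36, unadjusted p = 0.0261, limma adjusted p = 0.364). Its signal was dim, with means of -5.3 in controls and -6.3 in TCDD dams. A probe entered the test if well above background in a single group, and whether Ccl3 was so in both was not examined. The cystatin Cst7 stood at 0.19 (SE 0.11, adjusted p = 0.626) and the lipid carrier Apoe at -0.025 (SE 0.11). The caspase Casp1 was the single gene of these 20 whose groups did not overlap, where 7.05% of all genes did not. It was lower in TCDD dams, at -0.15 (SE 0.070, limma adjusted p = 0.502). Il1b, Il6, Nos2, Ccl2 and Cxcl10 did not pass the filter.

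Markers of the other cells of the tissue did not pass the test, with 0 genes called in each list and 0 to 4 per list at an unadjusted p under 0.05. The median difference was -0.015 over 9 astrocyte genes, -0.087 over 10 oligodendrocyte genes, 0.077 over 9 endothelial genes, -0.0034 over 10 neuronal genes and 0.036 over the 6 border macrophage genes. All 9 endothelial genes were higher, the thyroid hormone transporter Slco1c1 at 0.14 (SE 0.067). Olig2, a transcription factor of the oligodendrocyte lineage, was higher in every TCDD dam than in the controls, against the sign of its list's median, at 0.28 (SE 0.076, unadjusted p = 0.00579, limma adjusted p = 0.225), while Olig1 stood at -0.13 (SE 0.065). Among hypothalamic genes, somatostatin, Sst, stood at 0.43 (SE 0.12, unadjusted p = 0.00760, adjusted p = 0.237) and vasopressin, Avp, at -0.55 (SE 0.30, adjusted p = 0.591). The astrocyte connexins Gja1 and Gjb6 stood at 0.19 (SE 0.097) and -0.14 (SE 0.16), the neuronal genes Map2 and Syn1 at 0.17 (SE 0.090) and -0.075 (SE 0.067). In the list of border macrophages and monocytes, Vcan stood at 0.18 (SE 0.12) and Plac8 at -0.92 (SE 0.60), and among other leukocyte genes Cd3d at 0.20 (SE 0.12) and Nkg7 at -0.51 (SE 0.55). The median was 0.90 over the 5 red blood cell genes, all 5 higher and 4 of them at an unadjusted p under 0.05, Hbb at 0.90 (SE 0.32, limma adjusted p = 0.349). The part of red blood cell RNA in the marker differences was not tested.

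Likeness to the markers was taken as Pearson r over 8 arrays between a gene and the mean of the 10 markers, both minus their group means, and is given as a description. The 10 genes most like that mean were Unc119b (0.972), Selv (0.968), Ahsa2 (0.966), Sel1l3 (0.963), Smo (0.959), Rsph1 (0.959), Ttc37 (0.956), Dnajc3 (0.952), Fbln2 (0.951) and Rbm39 (0.951). Of 11418 genes with a symbol, 62 reached 0.9. With Tmem119 left out of the mean, the same 10 genes had r from 0.783 (Ahsa2) to 0.930 (Smo), and 0 of them were among the 10 most like that mean, a list led by Inhba (0.981) and the MHC class I genes RT1-S2 (0.978) and RT1-T24-1 (0.977).

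Among the markers, C1qb (0.861), Tyrobp (0.801), C1qc (0.741) and C1qa (0.739) were most like the mean of the other 9, and Aif1 (-0.140), Trem2 (-0.089) and Tmem119 (-0.082) least. The likeness of other microglia genes to the 10-marker mean had a median of 0.11, with 16 of 25 above 0. It was 0.59 over microglia activation genes (16 of 20 above 0), 0.45 over complement genes (16 of 18) and 0.57 over border macrophage genes (6 of 6). Beta 2 integrin partners and ligands gave 0.63 (4 of 6), while Itgb2, the chain that pairs with Itgam, stood at -0.36. Astrocyte genes gave 0.51 (7 of 9) and endosome and lysosome genes 0.43 (13 of 16). Endothelial genes gave 0.073 (6 of 9) and oligodendrocyte genes -0.29 (4 of 10). Red blood cell genes gave 0.85 (5 of 5), but without removal of group means their r ran from 0.31 (Hbb) to 0.50 (Ahsp). Over the neuronal genes the median likeness was -0.53, with 1 of 10 above 0. Over all genes with a symbol it was -0.017.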

How the data were processed

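Single-colour Agilent arrays of 8 rat hypothalami were analysed. Per the file headers, the deposited intensities are linear processed signals of Agilent Feature Extraction 10.7.1.1, with background and spatial trend removed, and positions are on build rn4. The authors' deposited value table holds intensities too (median 65.1 in all 8 columns, r of 0.999 or more with the scanner values across probes); no label states how it was made, and it was used as an alternative setting.

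Each signal was put on a log2 scale and centred on its array's 75th percentile over 42877 non-control spots. The 1377 control spots and 3288 outlier spots over the 8 arrays were left out, and spots of a probe were averaged. A probe was tested if well above background on all 4 arrays of a group (19102 of 30367 probes), and a gene took its brightest probe, giving 16574 genes. Groups were compared with limma 3.58.1 in R 4.3.3 (lmFit and eBayes, 2-sided, Benjamini-Hochberg, threshold 0.05), which was tested on simulated data. Pairs of markers were tested by exact permutation over 40320 pairings, 2-sided. The number of arrays limits the precision. The labels do not say how dams were housed or pooled, so p-values measure the spread between these samples.

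The markers and lists were chosen with earlier results of these data known. The rule named every marker, the smallest p in each direction of each list, any list gene past the test and the 10 genes most like the marker mean. Alternatives changed background correction, scaling, value table, filter, probe choice, variance model and arrays used, or added the replicate number as a block. Same-numbered arrays deviated from their group means with r of 0.23, -0.0031, -0.046 and 0.10, so the numbers were not taken as pairs. Figures were drawn with matplotlib 3.10.9.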

Additional observations from a re-analysis of the deposited data

Results flagged for a closer look

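For 4 results 1 array lay far from the other 3 of its group, judged by its gap to the nearest array as a share of the group's range (Dixon's test). C1qb was highest on control replicate 4, with a gap of 0.86 of the control range. On TCDD replicate 2, Runx1 and Tln1 were the highest of their group (0.849 and 0.912) and Olig2 the lowest (0.864). In all, 80 groups of 4 arrays were examined, and chance gives such a gap in about 1 of 20.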

How the results depend on the processing

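Under 10 alternatives and with each of 8 arrays left out, 0 of the 10 markers were called, the smallest adjusted p being 0.316 for Cd68. Of 180 marker values, 175 kept their direction. C1qa turned to 0.032 and Aif1 to 0.054 without slide position 1. With single arrays left out, C1qa ran from -0.076 to 0.0072 and Aif1 from -0.10 to 0.043, both turning without TCDD replicate 1 (to 0.0072 and 0.043), and C1qa without control replicate 4 (0.00041). The median marker difference ran from -0.15 to -0.019 over the arrays left out. Genes called among all genes numbered 4, and 20 with normexp, 27 with median scaling, 34 with the intensity trend, 2 without position 1 and 0 with no filter (limma, 2032 at an unadjusted p under 0.05); over the arrays left out they ran from 0 to 8, with 0 without control replicate 1, 2 or 4 or TCDD replicate 2 or 3 (1350, 1394, 2031, 1797 and 1414 at an unadjusted p under 0.05 in limma), 1 without TCDD replicate 4 and 8 without control replicate 3. With the replicate number as a block, limma called 0 genes (2139 at an unadjusted p under 0.05) and 0 markers. The median pair r of 0.18 was 0.090 with median scaling and ran from 0.065 to 0.34 over the arrays left out (0.31 without TCDD replicate 4). Over 16 alternatives the r of C1qc with Cd68 ran from 0.75 to 0.96. It ran from 0.74 to 0.94 for C1qc with Tyrobp and from 0.80 to 0.98 for C1qb with Tyrobp. The lowest r of C1qc with Cd68 and with Tyrobp came with normexp. With the percentile taken over probes, chosen after seeing the data, 3 genes were called. The printed intervals hold the differences that the values allow and do not give the smallest difference the test could call. With 4 arrays per group, a difference whose interval left out 0 could still miss the threshold. C3 did so, at -0.65 (interval -1.08 to -0.21, limma adjusted p = 0.252).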
